A study of Homo sapiens with 4 samples.

Results

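The 7 genes described here make miR-34a, miR-34b, miR-34c, miR-192, miR-194 and miR-215, miRNAs whose genes are known to respond to the tumour suppressor p53. They were found by symbol among the 7062 small RNA features of each count table, of which 1869 were miRNA genes. The set was selected on the low level of MIR34C in cells with the T4A form of RNA polymerase II, seen in these same libraries, and on membership of the family or pathway. The difference between the groups is therefore given for every member as a description, and where a count of calls includes a member nothing is read from it.

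The cells were HEK293T, a human embryonic kidney line entered as HEK293 in the cell line label. Both groups were transiently transfected with 1.5 µg of plasmid per well and selected for 72 h with 2.5 µg/ml of α-amanitin, which blocks the cells' own RNA polymerase II, so each library comes from a selected pool and not from a clone. In 52X WT the plasmid carried a wild-type C-terminal domain (CTD) of 52 repeats, and in 52X T4A the threonine at the fourth position of the repeats was replaced by alanine. No untransfected or untreated cells were analysed here. Small RNA libraries with reads of 50 bp were made from total RNA, 2 per group, described by the submitters as biological replicates. Total counts ran from 16180790 to 27370127 per library, and the 7 genes took 0.144% to 0.233% of them. All 5 miRNA genes taken as typical of the line (MIR10A, MIR10B, MIR196A1, MIR196A2 and MIR196B) were detected, at a summed 196817 to 248234 counts per 1000000 counts of the library (CPM). MIR10A and MIR10B made up most of this sum and had similar counts, and MIR196A1 and MIR196A2 share a mature sequence. The sum may therefore hold the same reads more than once.

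As background, p53 binds near the miR-34 genes and raises their transcription after DNA damage. The miR-34 miRNAs then lower mRNAs that drive the cell cycle and restrain cell death. MIR34B and MIR34C are made from a shared primary transcript, while MIR34A has a gene of its own. The miR-192 and miR-215 genes each lie beside a copy of the miR-194 gene. These miRNAs are known from kidney, liver and gut epithelium, and miR-192 and miR-215 can lead to a rise of the p53 target p21. In HEK293T cells p53 is bound by the SV40 large T antigen, which holds back its activity.

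Position and sequence show how the members are related. MIR34B (ENSG00000207811.3, chromosome 11 from 111512938 to 111513021) and MIR34C (ENSG00000207562.3, chromosome 11 from 111513439 to 111513515) lie on the plus strand with 417 bases between them. In GENCODE v44lift37 MIR34BHG, a long noncoding RNA gene on the same strand, has an exon that holds all of MIR34C and part of MIR34B, and both lie in an intron of BTG4 on the other strand. MIR34A (ENSG00000284357.1, chromosome 1 from 9151668 to 9151777, minus strand) lies within the long noncoding RNA gene MIR34AHG in RefSeq. MIR192 (ENSG00000283926.1, chromosome 11 from 64891137 to 64891246) and MIR194-2 (ENSG00000284155.1, from 64891355 to 64891439) are 108 bases apart on the minus strand within MIR194-2HG. MIR215 (ENSG00000207590.1, chromosome 1 from 220117853 to 220117962) and MIR194-1 (ENSG00000207624.1, from 220118157 to 220118241) are 194 bases apart on the minus strand, opposite to an intron of IARS2, which encodes a mitochondrial isoleucyl-tRNA synthetase. Coordinates are those of the count tables and match RefSeq on GRCh38.

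The mature sequences below are shown because the seed, bases 2 to 8 from the 5′ end and here in capitals, is the part of a miRNA that pairs with its targets. They come from RefSeq on GRCh38.p14, which matched all 7 genes and gave 11 mature names with 10 different seeds. Mature forms of MIR34A, MIR34B and 2 relatives by seed, MIR449A and MIR449C, are followed by the 3p arms of MIR34B and MIR34C.
hsa-miR-34a-5p: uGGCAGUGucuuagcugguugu
hsa-miR-449a: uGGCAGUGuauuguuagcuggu
hsa-miR-34b-5p: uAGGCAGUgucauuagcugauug
hsa-miR-449c-5p: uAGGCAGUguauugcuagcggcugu
hsa-miR-34b-3p: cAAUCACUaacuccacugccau
hsa-miR-34c-3p: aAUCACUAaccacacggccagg

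The seed of miR-34b-5p is that of miR-34a-5p moved by 1 base, since an extra base stands at its start. The same step separates miR-449c-5p from miR-449a, and the 3p arm of miR-34c begins 1 base after that of miR-34b. The 5p arm of MIR34C, miR-34c-5p, is not among the 11 mature names and is not shown.

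The second group shows why MIR192 and MIR215 form a pair and why the copies of miR-194 cannot be told apart.
hsa-miR-192-5p: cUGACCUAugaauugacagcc
hsa-miR-215-5p: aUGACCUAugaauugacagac
hsa-miR-194-5p: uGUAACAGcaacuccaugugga

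The miR-192-5p and miR-215-5p sequences were identical at 19 of 21 bases, with the differences C1A and C20A (miR-192-5p first, counted from its 5′ end) outside the shared seed. Their hairpins were 52.5% identical over an alignment of 120 positions. The same miR-194-5p sequence is made from MIR194-1 and MIR194-2. Reads of it can be placed at either gene, and the counts of these genes alone do not show whether they were split or counted at both. MIR1-1 and MIR1-2, which also share a mature sequence, had closer counts. These were 738 and 740 in 52X T4A replicate 1, and 1259 and 1253 in 52X T4A replicate 2. How shared reads were assigned was not tested.

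Of the 6 members with enough counts for a fit, MIR34C had the largest difference between the groups. It had 81 and 163 counts in 52X T4A replicates 1 and 2, and 580 and 548 in 52X WT replicates 1 and 2. Scaled to library size these were 5.12 and 5.16 CPM against 39.7 and 29.1 CPM, so both 52X T4A libraries lay far below both 52X WT libraries and were nearly equal to each other. The mean was 5.14 ± 0.0318 CPM with 52X T4A against 34.4 ± 7.52 CPM with 52X WT (SD, n = 2 each). The level was 6.69-fold lower in 52X T4A, or −2.74 on the log2 scale (standard error, SE, 0.34). Only 2 of 1480 features tested had a lower log2 fold change. In RNA from whole cultures, fewer cells making a miRNA and less of it per cell cannot be told apart.

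MIR34A, the most abundant of the miR-34 genes, was lower in 52X T4A by a much smaller margin. Its 2300 and 4624 counts in 52X T4A gave 145 and 146 CPM, and its 3340 and 3338 counts in 52X WT gave 229 and 177 CPM. The groups did not overlap, but the 52X WT libraries stood further from each other than 52X WT replicate 2 stood from 52X T4A. The log2 fold change was −0.48 with an SE of 0.25.

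MIR34B, the neighbour of MIR34C, was close to undetected. It had 0 and 1 counts in 52X T4A and 2 and 4 in 52X WT, which was too little to pass the filter on low counts. Summed over libraries this was 1 count against 6, a rate of 0.0211 CPM (exact 95% interval 0.000534 to 0.118) against 0.18 CPM (0.0659 to 0.391). These intervals cover counting error only and leave out the spread between cultures. A count of 0 in 52X T4A replicate 1 allows a level of up to 0.19 CPM. Per base of gene length, MIR34C had 214 times the counts of MIR34B over the 4 libraries (exact 95% interval 103 to 533).

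The balance between MIR34A and MIR34C does not depend on library scaling. Per base of gene length, MIR34A had 19.9 times the counts of MIR34C in each 52X T4A library, against 4.03 and 4.26 times in 52X WT replicates 1 and 2. The ratio was nearly equal within each group and more than 4 times as large in 52X T4A. The set was chosen on the low MIR34C level in 52X T4A, so this difference restates that level and adds no separate support.

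MIR192 was the most abundant member and was higher in 52X T4A. Its counts were 20969 and 41463 in 52X T4A and 12779 and 17910 in 52X WT, or 1325 and 1313 CPM against 876 and 951 CPM. The mean was 1319 ± 8.21 CPM with 52X T4A against 914 ± 53.5 CPM with 52X WT (SD, n = 2 each). The groups did not overlap, and the log2 fold change was 0.53 with an SE of 0.20.

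MIR215, which shares its seed, had 7550 and 14295 counts in 52X T4A and 4908 and 7361 in 52X WT. These gave 477 and 453 CPM against 336 and 391 CPM, again without overlap, with a log2 fold change of 0.35 and an SE of 0.23. The ratio of MIR192 to MIR215 lay between 2.43 and 2.9 in all 4 libraries. It was 2.78 and 2.9 in 52X T4A and 2.6 and 2.43 in 52X WT. The genes are on different chromosomes, but miR-192-5p and miR-215-5p are identical at 19 of 21 bases. How reads matching both were assigned is not known, so their counts may not be independent of each other.

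The miR-194 genes did not follow their neighbours. MIR194-1 was at 44.8 and 48.2 CPM in 52X T4A against 59.8 and 43.3 CPM in 52X WT. MIR194-2 was at 46.9 and 52.6 CPM against 62.4 and 45.6 CPM. For both, 52X WT replicate 1 was highest and 52X WT replicate 2 lowest, with the 52X T4A libraries between them. The log2 fold changes were −0.15 and −0.12, each with an SE of 0.30. Both turned positive with upper quartile scaling, with library size alone and without 52X WT replicate 1, so no direction can be given. The copies stayed within a ratio of 1.04 to 1.09 of each other in every library.

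**Figure D1:**
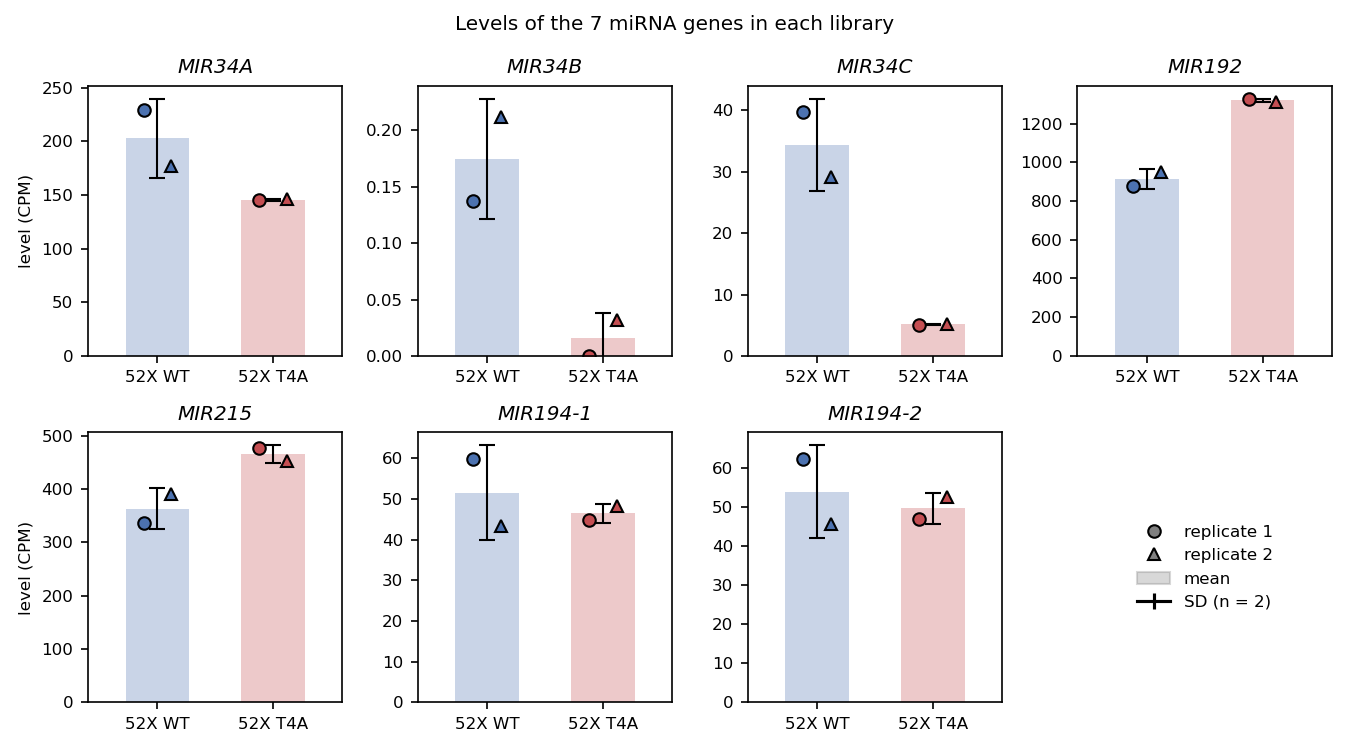
Level in CPM (vertical axis, linear from 0, with its own range in each panel) of the 7 genes by group. Points are the 2 libraries of a group, bars their mean and lines the SD. MIR34C lies at 5.12 and 5.16 CPM in 52X T4A against 39.7 and 29.1 CPM in 52X WT, while MIR192 and MIR215 lie higher in 52X T4A and the miR-194 genes overlap.

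Clustered neighbours differed widely in counts. Per base, MIR192 had 21.8 and 19.3 times the counts of MIR194-2 in 52X T4A, and 10.8 and 16.1 times in 52X WT. MIR215 had 8.23 and 7.26 times those of MIR194-1 in 52X T4A, and 4.35 and 6.97 times in 52X WT. Both ratios were lowest in 52X WT replicate 1 and were higher in both 52X T4A libraries than in either 52X WT library. The margin over 52X WT replicate 2 was narrow for MIR215, at 7.26 against 6.97. Reads of miR-194-5p can be placed at either copy, so these ratios are not independent and need not give the balance within a cluster.

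**Figure D2:**
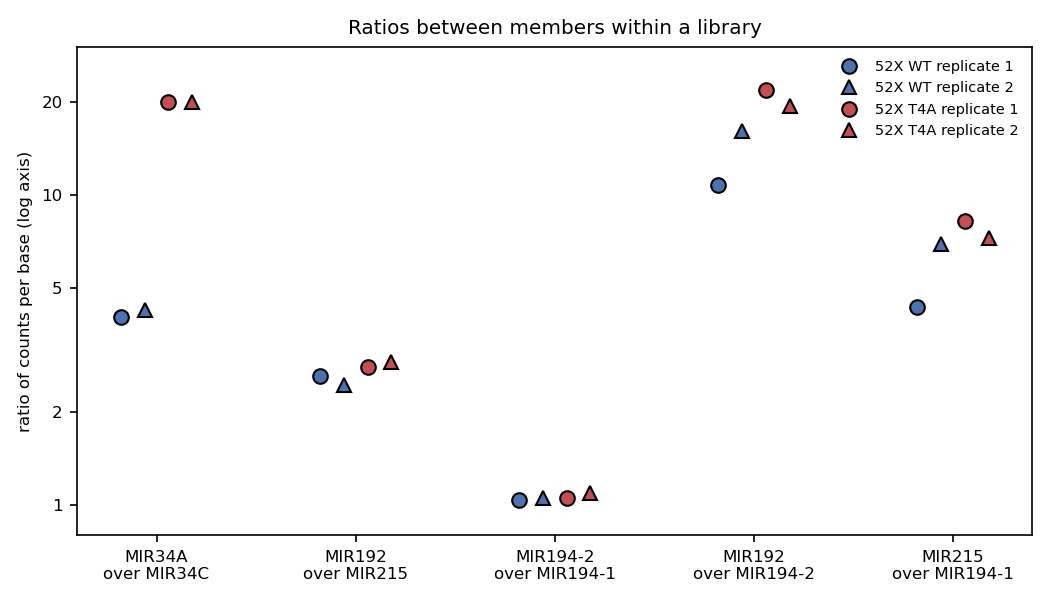
Ratios of counts per base of gene length between pairs of members (vertical log axis), with 1 point for each of the 4 libraries. MIR34A over MIR34C is 19.9 in both 52X T4A libraries and 4.03 and 4.26 in 52X WT, MIR192 over MIR215 stays between 2.43 and 2.9, and MIR194-2 over MIR194-1 stays near 1.

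The order of levels was read per base of gene length, as CPM divided by length in kilobases (RPKM) and averaged over the 4 libraries. MIR192 came highest at 10148 RPKM and ranked 63 among the miRNA genes, followed by MIR215 at 3766 and MIR34A at 1586. These 3 did not overlap with each other in any library. MIR194-2 and MIR194-1 followed at 610 and 577 RPKM and did not differ beyond their spread. MIR34C averaged 257 RPKM and lay below both miR-194 genes in every library. The distance depended on the group, with 516 and 378 RPKM for MIR34C against 703 and 510 RPKM for MIR194-1 in 52X WT, and 66.5 and 67 RPKM against 527 and 567 RPKM in 52X T4A. MIR34B was last at 1.13 RPKM.

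The members were then set against all features. A feature was called at a false discovery rate (FDR, from edgeR's quasi-likelihood test after Benjamini-Hochberg adjustment) below 0.05 and a fold change above 1.5. Of the 7 genes 6 passed the filter on low counts, and 1, MIR34C, was called, against 0.135% of the 1480 features tested. Because MIR34C led to the choice of the set, nothing is read from this count. The call of MIR34C was lost when libraries were scaled by miRNAs alone and when 52X WT replicate 1 was left out, while its log2 fold change stayed between −2.95 and −2.55. Of the 6, MIR34A and MIR34C were lower in 52X T4A without overlap, as were 21.2% of all features tested, and MIR192 and MIR215 were higher without overlap, as were 18.9%. The median log2 fold change was −0.13 for the 6, −0.02 for 621 miRNA genes and −0.05 for all features tested.

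**Figure D3:**
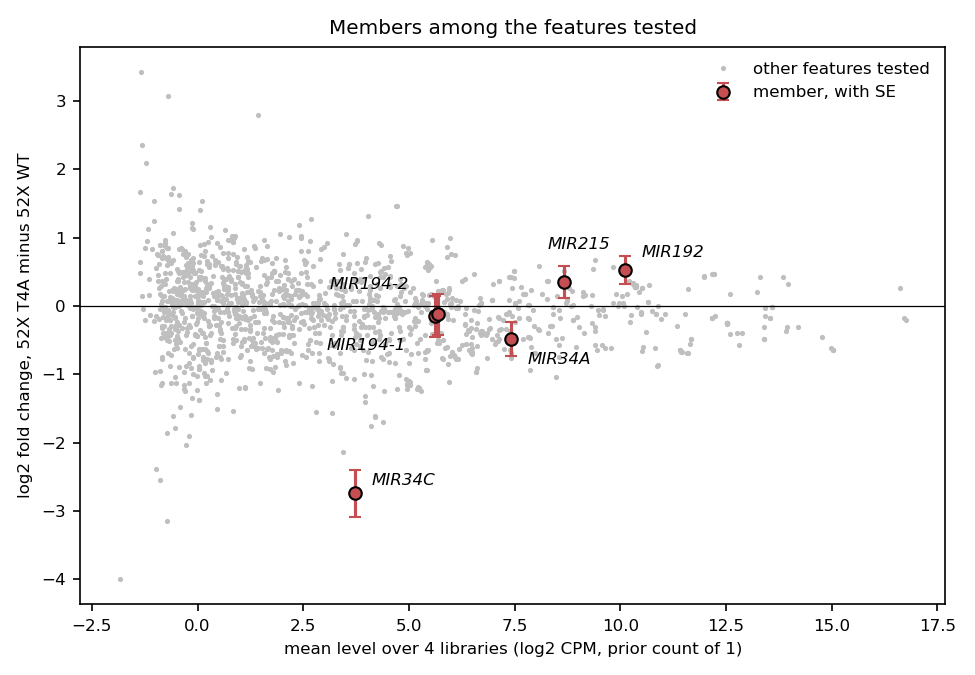
Log2 fold change of 52X T4A against 52X WT (vertical axis) by mean level over the 4 libraries (horizontal axis, log2 CPM with a prior count of 1) for 1480 features, with members in red and their SE as lines. MIR34C lies at −2.74, near the lower edge of all features, and the other 5 members tested lie within the bulk of the features, from −0.48 to 0.53.

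Other cell types were checked by their markers, because miR-192, miR-194 and miR-215 are also made in liver and epithelium. The liver miRNA gene MIR122 had 8 to 15 counts per library, with the groups overlapping. Of 4 epithelial genes (MIR200A, MIR200B, MIR429 and MIR205) all but MIR429 passed the filter on low counts. None of these 3 was called in the reported fit (smallest FDR of edgeR's test 0.395). Their median log2 fold change was 0.91, and ran from 0.67 to 1.08 over 14 alternatives, with at most 1 of the 3 below 0. MIR200A and MIR200B were higher in 52X T4A without overlap, as were 18.9% of all features tested, while MIR205 overlapped. MIR429 had 9 and 20 counts in 52X T4A against 1 and 1 in 52X WT. The sum of the 4 was 29.8 and 22.8 CPM in 52X T4A replicates 1 and 2 against 13.4 and 14.2 CPM in 52X WT replicates 1 and 2, without overlap. Of 5 muscle genes (MIR1-1, MIR1-2, MIR133A1, MIR133A2 and MIR206) all but MIR206 passed the filter. None of these 4 was called in the reported fit either (smallest FDR of edgeR's test 0.186). All 4 were higher in 52X T4A without overlap, as were 18.9% of all features tested. The sum of the 5 was 96.5 and 81.6 CPM in 52X T4A against 30.5 and 33.1 CPM in 52X WT, also without overlap. With library size alone, without a filter, with DESeq2 and with the replicate block 2 of the muscle genes were called. Those fits called 9, 29, 29 and 18 features, out of 3803 without a filter and 1480 in the others. When 52X WT replicate 2 was left out the median log2 fold change of the 4 muscle genes was 1.73, against 1.78 in the reported fit. MIR1-1 and MIR1-2 share a mature sequence, as do MIR133A1 and MIR133A2, and the counts of each pair were nearly equal, so the sum and the calls may hold the same reads more than once. Of 5 blood genes only MIR142 and MIR486-1 passed the filter and neither was called, MIR144 was at 0 in a library of each group, and the sum, mostly MIR486-1, was 31 and 41.1 CPM in 52X T4A against 61.3 and 49.5 CPM in 52X WT. The 3 copies of the nervous system gene MIR124 summed to 4.36 to 12.1 CPM with the groups overlapping, and none was called. The part of these cell types in the difference of MIR192 and MIR215 was not tested.

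The relatives of miR-34 by seed, the MIR449 genes of chromosome 5 (MIR449A from 55170532 to 55170622 and MIR449C from 55172262 to 55172353, minus strand), are known from ciliated epithelium. None of the 3 was called (smallest FDR of edgeR's test 0.467). MIR449A was at 5.43 and 5.45 CPM in 52X T4A against 3.7 and 6.96 CPM in 52X WT, with a log2 fold change of 0.02 and an SE of 0.39. MIR449C was at 14.2 and 11.6 CPM against 21.2 and 19.8 CPM, with a log2 fold change of −0.67 and an SE of 0.32. In 52X T4A the counts per base of MIR34C were 1.11 and 1.12 times those of MIR449A, while in 52X WT they were 12.7 and 4.94 times as many. Without division by gene length the ratios were 0.942 and 0.948 in 52X T4A, and 10.7 and 4.18 in 52X WT. Which of these genes was higher in 52X T4A thus depended on the scale. The lower ratio in 52X T4A restates the MIR34C level on which the set was chosen.

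Other miRNA genes known to be raised by p53, or to mature with its help, were taken as a list of 11. None of the 11 tested was called (smallest FDR of edgeR's test 0.467), 5 lay above 0 and 6 below, and their median log2 fold change was −0.00. The number below 0 ran from 2 to 7 over the alternatives, so the list has no direction. The most abundant, MIR107, which targets cell cycle mRNAs and lies in an intron of PANK1, had 10868 and 9979 CPM in 52X T4A against 12775 and 10279 CPM in 52X WT, overlapping. MIR143 and MIR16-1, a miRNA gene lost in chronic lymphocytic leukaemia, also overlapped between groups, with log2 fold changes of 0.18 (SE 0.25) and −0.17 (SE 0.31). MIR200C, a brake on the epithelial to mesenchymal transition, had the highest log2 fold change of the list at 0.66 (SE 0.31), and MIR15A the lowest at −0.54 (SE 0.34).

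The cluster known to be repressed by p53, miR-17-92, was lower in value in 52X T4A at each of its 6 genes, without overlap between groups, as were 21.2% of all features tested, but none was called (smallest FDR of edgeR's test 0.419). Log2 fold changes ran from −0.85 to −0.48 with a median of −0.60. They are made from a shared transcript and are not independent of each other. MIR92A1, the most abundant, was at 9264 and 8934 CPM in 52X T4A against 12277 and 13164 CPM in 52X WT. MIR20A, with 1121 and 1337 CPM against 2253 and 1474 CPM, had most of its difference from 52X WT replicate 1. The median stayed below 0 under all 14 alternatives, from −0.87 to −0.39. Without 52X WT replicate 2, 4 of the 6 were called, in a fit that called 231 features. The mature forms of MIR19B1 and MIR92A1, and of MIR16-1 in the list above, are also made from the copies MIR19B2, MIR92A2 and MIR16-2, so the levels of these genes are uncertain.

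**Figure D4:**
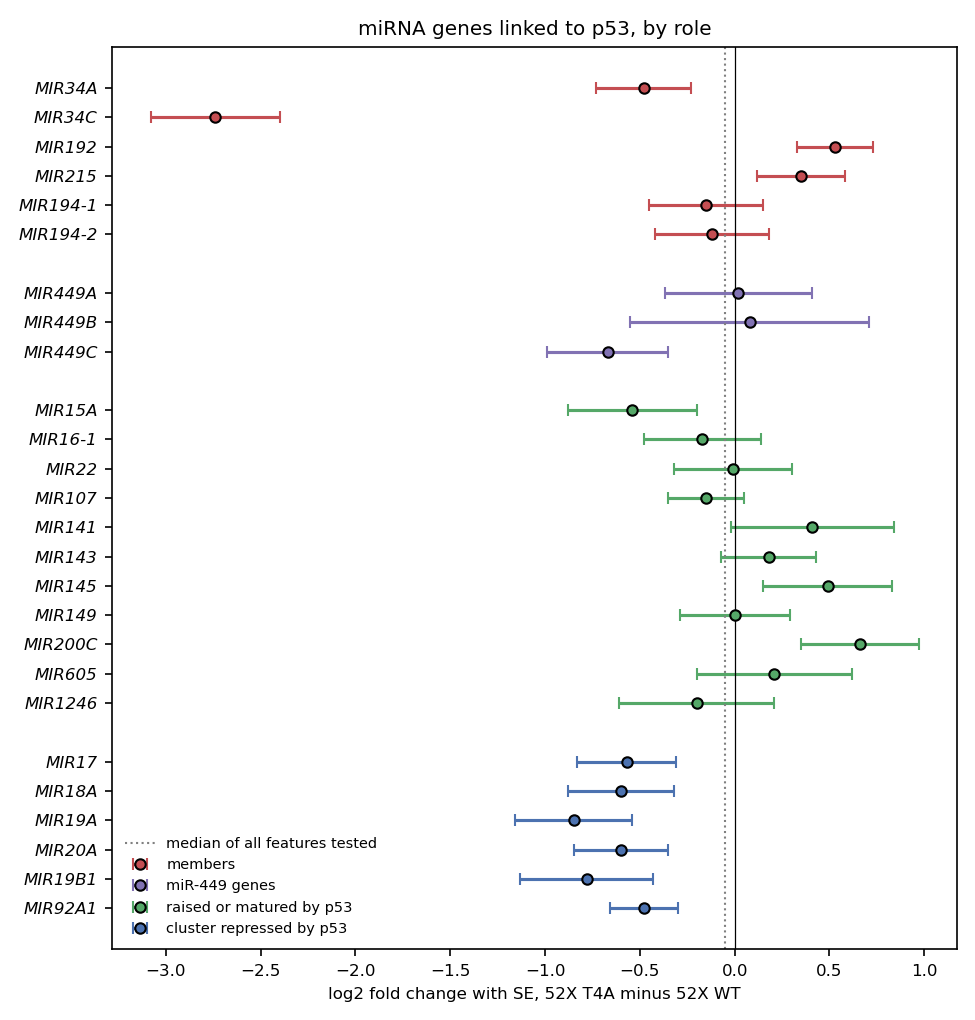
Log2 fold change of 52X T4A against 52X WT with its SE (horizontal axis) for the 6 members tested, the MIR449 genes and the other miRNA genes linked to p53, grouped by role. The dotted line is the median of all features tested, −0.05. MIR34C at −2.74 lies apart, the 6 genes of miR-17-92 lie between −0.85 and −0.48, and the other lists lie on both sides of 0.

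Profiles most like that of MIR34C were looked for among the 917 features that averaged 50 counts or more, by the root mean square distance between log2 CPM values over the 4 libraries after each feature was centred on its own mean. The nearest was MIR573, at a distance of 0.65, with 5.31 and 5.29 CPM in 52X T4A against 13.8 and 17.5 CPM in 52X WT. The next 4 were 3 copies named Y_RNA and a feature with no symbol on chromosome 16 (ENSG00000275745.1), at distances of 0.71 to 0.76. None of them belongs to the miR-34 family. MIR192 had closer neighbours. MIR152 was at a distance of 0.05, with 479 and 498 CPM in 52X T4A against 344 and 340 CPM in 52X WT, and 2 snRNA copies on chromosome 17 (LOC124904136 and LOC124904142) were at 0.06 each.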

How the data were processed

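The deposited files hold raw counts of reads per small RNA feature, 1 table per library, which the authors had not normalized. The submitters' processing notes name cutadapt 4.6, Bowtie2 2.3.5.1, featureCounts 1.5.0 and the build hg38, without settings. How reads matching several loci were assigned, and whether strand was used, is not given in the sources used here. Features were named by Ensembl identifier from GENCODE v44lift37 (5579 features) or by identical GRCh38 position in RefSeq.

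The members and lists were chosen with earlier results of these data known. Named genes were the 7 members, lists of miRNA genes with a known link to p53 (at most 4 with values in each, by abundance, and the extremes of the list chosen after their values were seen), cell type markers, and the nearest profiles of MIR34C and MIR192. A further list in the rule for named genes is not reported here.

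Counts from 1480 features passing filterByExpr (minimum count of 10) were scaled with TMM factors and fitted with edgeR 4.0.16 in R 4.3.3 (glmQLFit, glmQLFTest, Benjamini-Hochberg adjustment). The biological coefficient of variation was 26%. SE is the log2 fold change divided by the square root of F. CPM values use the TMM-scaled library sizes, and RPKM values divide them by gene length. Alternatives, including DESeq2 1.42.0 on the same counts, are given at the end. The fit was also run on simulated counts, and the outcome is not reported here. The same-numbered libraries had a correlation of deviations of 0.0946, and nothing in the labels pairs them.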

Additional observations from a re-analysis of the deposited data

How the results depend on the processing

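Of 78 comparisons of a member's log2 fold change with an alternative, 49 with all 4 libraries and 19 with a library left out moved by less than the SD between replicates. Another 5 with all libraries (MIR34A, MIR192 and MIR215 under another scaling) and 5 with a library left out (MIR192 and MIR215) moved by more, without a change of sign. The sign changed in 6 comparisons, all of the miR-194 genes. The ranges with all 4 libraries were −0.48 to −0.29 for MIR34A, −2.74 to −2.55 for MIR34C, 0.53 to 0.71 for MIR192 and 0.35 to 0.52 for MIR215, and without a library −0.65 to −0.33, −2.95 to −2.55, 0.42 to 0.59 and 0.20 to 0.47. MIR194-1 ran from −0.36 to 0.05 and MIR194-2 from −0.33 to 0.08. The median of all features tested moved from −0.05 to 0.13 with upper quartile factors and 0.14 with library size alone.

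Scaled to raw library totals, the 52X T4A levels of MIR34A, MIR34C, MIR192, MIR215 and MIR194-1 moved by more than their SD. The number of features called was 2 in the reported fit. It was 9 with library size alone, 29 without a filter, 29 with DESeq2 and 18 with the replicate block. With factors from miRNAs alone edgeR called 0 features and 0 members, while 143 had an unadjusted p-value under 0.05. In fits without a library, where the lone library of a group is assumed to vary like the others, it ran from 0 (without 52X WT replicate 1, where 121 were under that p-value) to 231 (without 52X WT replicate 2), and the number of members called ran from 0 to 1. The cause was not tested. The numbers do not pair the libraries, and the replicate block gave MIR34C a log2 fold change of −2.72. Counting miR-194 once was not run, because its copies differed by over 2%.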
